A study of Mus musculus with 2 samples.

Results

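Urocortin 3 and its receptor were followed in single-cell RNA-Seq data of mouse islets, as the transcripts Ucn3 and Crhr2, which are 2 of the 27998 genes in the deposited count tables. The genes were matched by symbol, and their unique molecular identifiers (UMIs, 1 count per captured transcript) were summed over cell barcodes grouped by leading hormone. A barcode was called insulin-led when Ins1 and Ins2 together, and Gcg-led, Sst-led or Ppy-led when that hormone, made up at least 10% of its UMIs. There were 2265 insulin-led barcodes in WT and 872 in GKO, 1048 and 1397 Gcg-led, 1414 and 1003 Sst-led, and 717 and 669 Ppy-led, of 7792 and 7289 barcodes in all. Barcodes with every hormone below 10% were grouped by marker genes and are called endothelial-like, stellate-like and so on.

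The study compared wild-type (WT) mice with ghrelin-knockout (GKO) littermates, both C57BL/6N and 8 weeks old. Islets of 4 mice were pooled for each genotype, dispersed, sorted by FACS and sequenced from transcript 3′ ends as 1 library per genotype. With 1 library each, no difference between genotypes can be tested, and every interval below is an exact 95% interval that covers counting error only. A count of 0 is given the limit of 3 UMIs or 3 barcodes. Cells that did not survive dispersion and sorting are not represented, and the tables were made before any removal of free RNA, so RNA from broken cells can still be in them.

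Urocortin 3 is a peptide of the corticotropin-releasing factor (CRF) family that β cells store and release together with insulin. It acts on CRHR2, a receptor that raises cAMP, on neighboring δ cells and so promotes the release of somatostatin, which in turn restrains insulin and glucagon release. In mice, Ucn3 appears in β cells as they mature after birth and is widely used as a marker of β-cell maturity.

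The WT library held 158067110 UMIs and the GKO library 103511757, with medians of 13934 and 10521 UMIs per barcode. The study's filter, which asks for 500 genes or more and for no more than 10% mitochondrial UMIs, left 7100 and 6346 barcodes. Ghrl, the deleted gene, had 43634 UMIs in WT and 280 in GKO, or 276 and 2.71 UMIs in 1000000 (CPM, counts scaled by all UMIs). The 6 barcodes with most Ghrl held 42984 of these UMIs in WT and all 280 in GKO. Sst-led barcodes held 58 Ghrl UMIs in WT and 0 in GKO, and insulin-led barcodes 343 and 1. A set of 18 barcode sequences occurred in both libraries. They carried 48 Ucn3 UMIs in WT, 0 in GKO and no Crhr2 UMI, and the genotype ratio of Ucn3 without them is given with the ratio itself.

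Ucn3 (ENSMUSG00000044988) lies on the minus strand of chromosome 13 at 3940688 to 3945349 (GRCm38). It has 1 annotated transcript of 2 exons, and the 492 coding bases lie in 1 exon. Crhr2 (ENSMUSG00000003476) lies on the minus strand of chromosome 6 at 55090049 to 55133016 and has 9 annotated transcripts, 5 of them coding. Of these 5, 3 start within 1 kb of the gene's start and 2 start elsewhere in the gene, and counts from 3′ ends cannot tell these forms apart. Neither gene overlaps another annotated gene. The 250 bases before each start site (RefSeq, GRCm38.p6, minus strand) are printed below because each gene was high in 1 endocrine class and low in the others. Capitals mark matches, on either strand, to CANNTG (the E-box, bound by basic helix-loop-helix factors) and TAAT (a core bound by homeodomain factors).
Ucn3, chr13:3945350-3945599: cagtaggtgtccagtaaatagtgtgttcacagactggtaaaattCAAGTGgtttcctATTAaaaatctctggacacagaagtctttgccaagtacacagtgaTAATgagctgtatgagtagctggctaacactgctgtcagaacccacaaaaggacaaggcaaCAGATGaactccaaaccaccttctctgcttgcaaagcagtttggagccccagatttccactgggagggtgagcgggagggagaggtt
Crhr2, chr6:55133017-55133266: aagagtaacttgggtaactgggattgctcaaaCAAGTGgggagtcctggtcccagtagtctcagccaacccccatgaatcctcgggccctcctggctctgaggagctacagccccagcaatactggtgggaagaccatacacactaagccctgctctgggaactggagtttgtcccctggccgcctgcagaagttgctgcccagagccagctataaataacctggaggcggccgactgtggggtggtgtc
The Ucn3 window held 2 matches to CANNTG and 2 to TAAT, and the Crhr2 window 1 and 0. Of 32851 mouse promoters, 66.2% hold CANNTG and 54.9% hold TAAT in the same window. TGCTGA, the core of the element bound by MAF factors, was in neither window and is in 16.1% of promoters. TGACG, the core of the cAMP response element, was likewise in neither and is in 17.8%. The Crhr2 window held 1 match to TATAAA (not in capitals), which 12.4% of promoters hold. Such matches describe letters only and are not shown to be bound.

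Ucn3 was high in insulin-led barcodes and low in the other hormone-led classes. WT held 13988 Ucn3 UMIs and GKO 5625, and 98.7% and 96.9% of those in barcodes that passed the filter were in insulin-led barcodes. The level in insulin-led barcodes was 153 CPM (interval 151 to 156) in WT and 159 CPM (155 to 164) in GKO. In Gcg-led barcodes it was 2.21 CPM (1.51 to 3.12, 32 UMIs) in WT and 1.92 CPM (1.35 to 2.66, 36 UMIs) in GKO. Insulin-led barcodes were thus 69.5-fold (49.2 to 102) above Gcg-led barcodes in WT and 82.8-fold (59.7 to 118) in GKO. Sst-led barcodes had 1.56 and 1.55 CPM, and Ppy-led barcodes 2.90 CPM (2.15 to 3.82) and 1.35 CPM (0.835 to 2.06). Below insulin-led barcodes the order was Ppy-led, Gcg-led, Sst-led in WT and Gcg-led, Sst-led, Ppy-led in GKO, and the intervals of neighbors in either order overlapped.

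**Figure D1:**
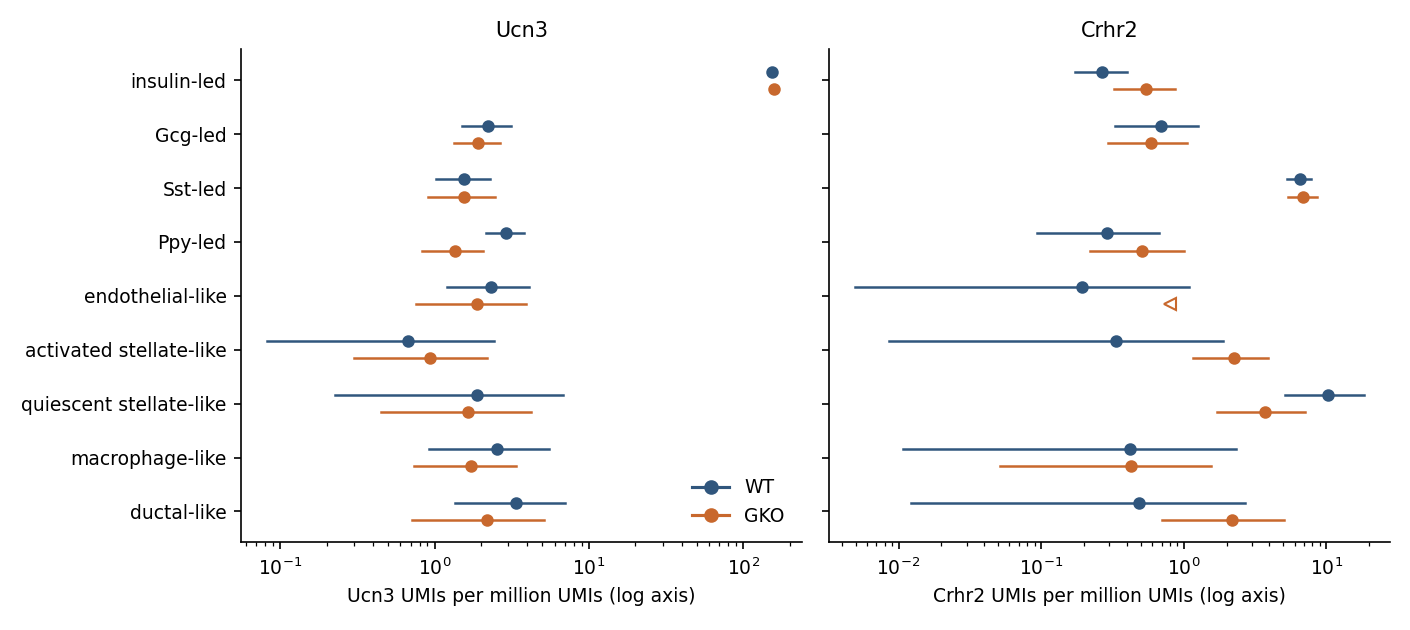
Levels of Ucn3 (left) and Crhr2 (right) in CPM on a log axis, for the 9 classes with at least 50 barcodes in each library, in WT (blue) and GKO (orange). Lines are 95% Poisson intervals, and an open arrowhead marks the limit of 3 UMIs for a class with 0. Ucn3 stood at 153 and 159 CPM in insulin-led barcodes, and Crhr2 was highest in Sst-led and quiescent stellate-like barcodes.

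The low Ucn3 counts outside insulin-led barcodes came with low counts of insulin, so the ratio of both was taken. Insulin made up 0.678% of UMIs in Gcg-led barcodes of WT and 0.494% of GKO, and 22.8% and 17.7% of these barcodes had a second hormone above 2%. Whether this insulin was free RNA or came from mixed barcodes was not tested. Ucn3 stood at 0.258 UMIs per 1000 insulin UMIs in insulin-led barcodes of WT and 0.277 in GKO. The ratio was 0.325 (0.223 to 0.459) and 0.389 (0.272 to 0.538) in Gcg-led barcodes, and 0.234 and 0.256 in Sst-led barcodes. The non-endocrine classes, which should lack Ucn3, had 30 UMIs in 1417 WT barcodes and 29 in 2120 GKO barcodes. Their ratios to insulin were 0.363 (0.245 to 0.518) and 0.308 (0.206 to 0.442). Over the 8 other classes with at least 50 barcodes in each library, the ratio ran from 0.136 to 0.598 in WT and from 0.236 to 0.452 in GKO. The interval held the insulin-led value of its library in each of them except WT Ppy-led barcodes, at 0.433 (0.322 to 0.571), and in GKO Gcg-led barcodes only just. The barcodes without a class had 15.3 CPM of Ucn3 in WT and 27.8 CPM in GKO, with higher ratios of 1.804 and 3.27, and 52 of their 64 GKO UMIs were in 1 barcode. Whether Gcg-led barcodes hold any Ucn3 of their own was not tested.

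**Figure D2:**
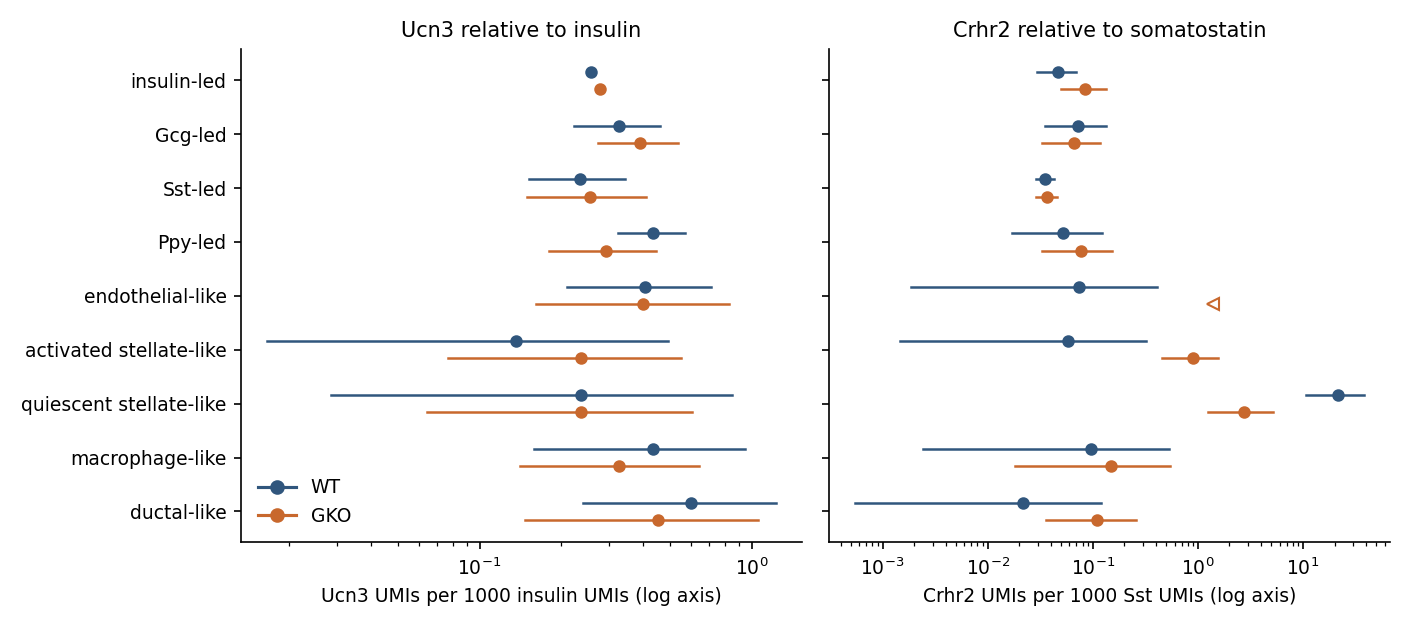
Ucn3 UMIs per 1000 insulin UMIs (left) and Crhr2 UMIs per 1000 Sst UMIs (right) in each class, on log axes, in WT (blue) and GKO (orange) with 95% Poisson intervals; an open arrowhead is the limit of 3 UMIs for a class with 0. The ratio of Ucn3 lay between 0.136 and 0.598 in the classes shown, whereas Crhr2 in quiescent stellate-like barcodes stood at 21.4 and 2.74, far above the ratio in Sst-led barcodes.

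At least 1 Ucn3 UMI was seen in 85.7% of insulin-led barcodes in WT (84.1 to 87.1) and 84.2% in GKO (81.6 to 86.5), at median depths of 37124 and 35811 UMIs. The share was 3.05% and 2.43% in Gcg-led barcodes, at 12502.5 and 12174 UMIs. In the non-endocrine classes it was 2.12% and 1.32%, at 8326 and 7979 UMIs. With every barcode thinned to 5000 UMIs, the shares were 47.3% and 48.5% for insulin-led and 0.868% and 1.09% for Gcg-led barcodes.

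The genotypes differed little in Ucn3 within insulin-led barcodes. The log2 ratio of GKO to WT was 0.05 (0.01 to 0.10), against a median of 0.09 over the 11907 genes with at least 100 UMIs in that class. Without the shared barcode sequences it was also 0.05. The member did not pass 1.5-fold, and 4.64% of all genes tested in insulin-led barcodes did. The sign was not stable to scaling: the ratio was -0.04 with TMM factors and -0.03 with hormone genes left out of the total. In Gcg-led barcodes the log2 ratio was -0.20 with a wide interval (-0.93 to 0.53), too few UMIs to show a difference of the size seen in insulin-led barcodes.

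Single insulin-led barcodes spread widely and alike in both libraries. The level per barcode ran from 0 to 1067 CPM in WT, with a median of 136 and an interquartile range of 62.4 to 211. In GKO it ran from 0 to 842 CPM, with a median of 142 and an interquartile range of 63.9 to 221. The median barcode held 5 Ucn3 UMIs in both. The highest held 36 and 27. The coefficient of variation, which includes counting noise, was 0.802 and 0.797.

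Barcodes with no Ucn3 UMI numbered 325 in WT and 138 in GKO, or 14.3% and 15.8%. They were shallower, with medians of 23337 and 23189.5 UMIs against 39282.5 and 39238 in barcodes with Ucn3. Insulin took a median of 48.4% and 42.9% of their UMIs, against 63.0% and 61.9%. A second endocrine hormone above 2% of UMIs was present in 27.7% and 29.0% of them, against 17.2% and 17.3%. Among insulin-led barcodes with no second hormone above 2%, 235 of 1841 in WT and 98 of 705 in GKO still had no Ucn3 UMI.

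How Ucn3 went with the insulin share of a barcode depended on the scale. Over all UMIs it was 62.7 CPM in WT barcodes with 10 to 25% insulin, 163 at 50 to 60% and 173 at 70% and more, and 77.5, 163 and 228 CPM in GKO. Per 1000 insulin UMIs the same steps gave 0.331 (0.265 to 0.408), 0.292 and 0.238 (0.229 to 0.248) in WT. In GKO they gave 0.406 (0.325 to 0.503), 0.292 and 0.315 (0.290 to 0.342). Relative to insulin, Ucn3 was lower in the highest step than in the lowest, though in GKO these intervals overlapped. The course between was not steady, with 0.220 (0.207 to 0.235) in WT and 0.239 (0.215 to 0.265) in GKO at 40 to 50% insulin. Scaled by the UMIs outside 9 hormone genes only (non-hormone CPM), Ucn3 was 95.6 (76.6 to 118) in WT barcodes with 10 to 25% insulin, 432 (416 to 448) at 50 to 60% and 729 (701 to 758) at 70% and more. In GKO the same steps gave 121 (96.7 to 150), 424 (400 to 450) and 946 (871 to 1025). This total is a smaller part of the UMIs where insulin takes more of them, which by itself raises the value in the upper steps. On this scale only the step of 70% and more, with 295 WT and 57 GKO barcodes, and that of 25 to 40% had intervals that did not overlap between genotypes. The lowest step is not a clean class of low-insulin β cells, since 75.5% and 73.0% of its barcodes carried a second hormone above 2%, against 0% in the highest step. How far such mixed barcodes shape the gradient was not tested. At the class limit itself, WT had 5 Ucn3 UMIs in 2 barcodes with 8 to 10% insulin and 0 in 3 barcodes with 10 to 12%, and GKO had 5 in 4 and 1 in 2.

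**Figure D3:**
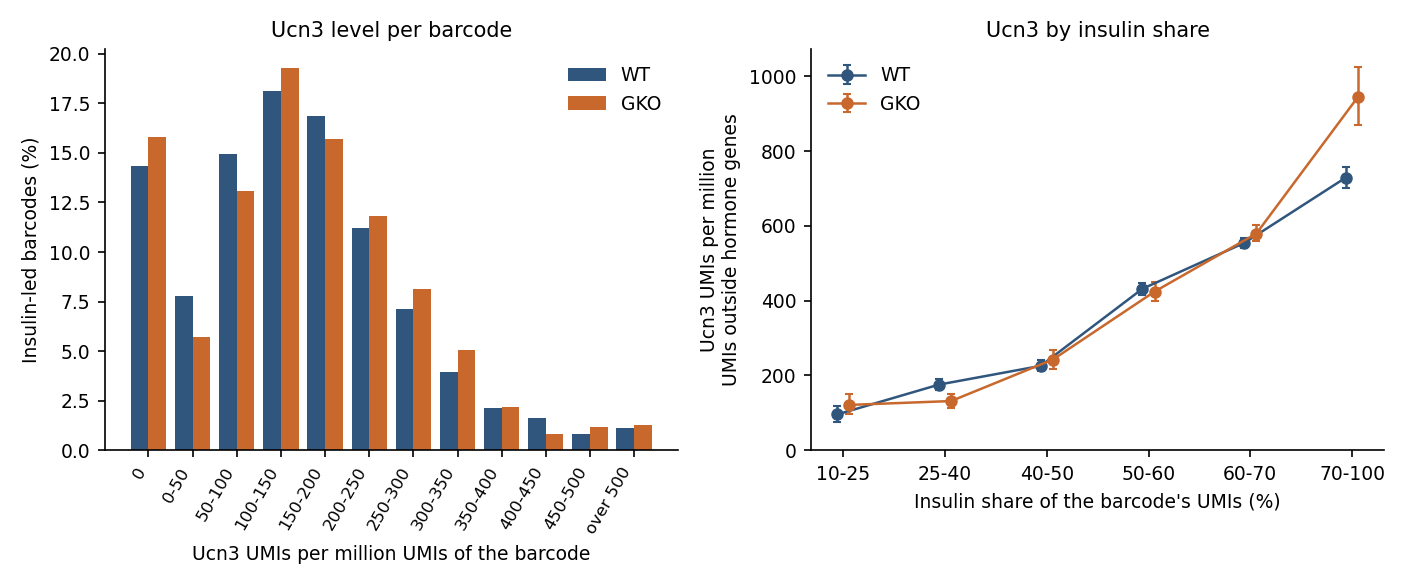
Left, share of insulin-led barcodes (%) by Ucn3 level of the barcode in CPM; right, Ucn3 in non-hormone CPM by insulin share of the barcode, with 95% Poisson intervals, in WT (blue) and GKO (orange). The distributions overlay, with 14.3% and 15.8% of barcodes at 0, and the non-hormone level runs from 95.6 and 121 in the lowest insulin step to 729 and 946 in the highest.

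The pattern of Ucn3 over classes was most like that of a small set of β-cell genes. Over 18 sums (9 classes in 2 libraries), the genes with the highest Pearson r with Ucn3 on a log2(CPM + 1) scale, among 6101 genes, were Cox6a2 (0.98), Trpm5 (0.97), Prss53 (0.97), G6pc2 (0.96) and Fam151a (0.95). Cox6a2 encodes a cytochrome c oxidase subunit, Trpm5 a cation channel and G6pc2 the islet glucose-6-phosphatase. Cox6a2 stood at 108 CPM in WT and 120 CPM in GKO insulin-led barcodes and at 2.90 and 2.46 CPM in Gcg-led barcodes. The 18 sums share libraries and depth, so these values describe the likeness and carry no test.

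Crhr2 was sparse, and most of it was in Sst-led barcodes. WT held 172 Crhr2 UMIs and GKO 165, with at most 3 and 2 in any barcode. Of those in barcodes that passed the filter, 64.5% and 51.7% were in Sst-led barcodes. The level there was 6.52 CPM (5.36 to 7.87, 109 UMIs) in WT and 6.83 CPM (5.37 to 8.56, 75 UMIs) in GKO. It was 0.270 CPM (0.173 to 0.401) and 0.549 CPM (0.325 to 0.867) in insulin-led barcodes, a 24.2-fold (15.4 to 39.4) and 12.4-fold (7.37 to 22.1) step. Gcg-led barcodes had 0.690 and 0.587 CPM, and Ppy-led barcodes 0.290 and 0.514 CPM. The intervals of the 3 endocrine classes other than Sst-led overlapped each other within each library.

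Crhr2 UMIs were found in 7.14% (5.86 to 8.61) of Sst-led barcodes in WT and 6.98% (5.48 to 8.74) in GKO, at median depths of 11065 and 10148 UMIs. Endothelial-like barcodes, taken as a class with little or no Crhr2, gave 0.170% in WT at a median depth of 7084 UMIs. In GKO they gave 0 of 444 barcodes, which allows a share of up to 0.676%, at 7366.5 UMIs. Other classes outside the hormone-led ones gave higher shares. They were 0.490% in WT and 0.434% in GKO for macrophage-like, 0.368% and 1.83% for activated stellate-like, and 0.901% and 2.74% for ductal-like barcodes. Thinned to 5000 UMIs, the Sst-led shares were 3.08% (2.24 to 4.12) and 3.73% (2.64 to 5.10). Of the Sst-led barcodes with Crhr2, 93 of 101 in WT and 65 of 70 in GKO held 1 UMI. At this depth a barcode without a Crhr2 UMI cannot be called a δ cell without the receptor.

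Crhr2 did not differ detectably between the genotypes in Sst-led barcodes. The log2 ratio of GKO to WT was 0.07 (-0.38 to 0.50), against a median of 0.03 over 10735 genes tested in that class, and 3.13% of those genes passed 1.5-fold. Counting error alone leaves room for a change of either sign within that interval. A second hormone above 2% was present in 56.4% of Sst-led barcodes in WT and 50.1% in GKO, so values of this class are not those of δ cells alone. Without these mixed barcodes the log2 ratio of Crhr2 was 0.03 (-0.68 to 0.73). Within Sst-led barcodes Crhr2 showed no steady course with somatostatin. In non-hormone CPM it was 10.2 (6.96 to 14.5) at 10 to 15% Sst and 15.4 (8.17 to 26.3) at 25% and more in WT. The same steps gave 8.17 (4.76 to 13.1) and 13.1 (6.01 to 24.95) in GKO, and the steps between were 8.89 and 7.70 in WT and 12.8 and 5.6 in GKO. Just below the 10% limit, barcodes with 8 to 10% Sst held 2 Crhr2 UMIs in 42 WT barcodes and 10 in 46 GKO barcodes, and those with 10 to 12% held 7 in 95 and 6 in 84.

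The few Crhr2 UMIs in insulin-led and Gcg-led barcodes sat mostly in barcodes that also carried somatostatin. Of the 24 WT insulin-led barcodes with Crhr2, 18 had more than 1% Sst, against 12.2% of those without. In GKO 14 of 18 did, against 11.8%. Their median Sst share was 4.00% and 3.31%. Among Gcg-led barcodes with Crhr2, 8 of 10 in WT and 9 of 10 in GKO had more than 1% Sst. Per 1000 Sst UMIs, Crhr2 stood at 0.0465 (0.0298 to 0.0692) and 0.0850 (0.0504 to 0.134) in insulin-led barcodes, beside 0.0352 (0.0289 to 0.0425) and 0.0368 (0.0290 to 0.0461) in Sst-led barcodes. In GKO these intervals did not overlap.

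Quiescent stellate-like barcodes, a contractile perivascular class, also held Crhr2. The level was 10.3 CPM (5.17 to 18.5) in WT and 3.73 CPM (1.71 to 7.08) in GKO, from 11 and 9 UMIs. They were in 8 of 202 and 7 of 414 barcodes. All 20 UMIs were in barcodes with Myh11, smooth-muscle myosin, of which there were 171 and 363. Myh11 is also a marker of the class. The 0 UMIs in the 31 WT and 51 GKO barcodes without it allow up to 24.1 and 15.6 CPM. These limits lie above the class levels, so an absence there cannot be shown. Somatostatin made up 0.0483% and 0.136% of UMIs in this class, so that Crhr2 stood at 21.4 (10.7 to 38.4) and 2.74 (1.25 to 5.20) per 1000 Sst UMIs. Activated stellate-like barcodes had 0.338 CPM (1 UMI) in WT and 2.24 CPM (1.16 to 3.91, 12 UMIs) in GKO.

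Other genes were sought by likeness to Crhr2 over classes, a choice that by itself favors genes high in the same pair of classes. Over the same 18 sums and among 12375 genes, the 5 with the highest r included Dtna (r = 0.89), Cacna1h (0.89), Nhs (0.89) and Dgkb (0.89). Cacna1h, a T-type calcium channel subunit, stood at 24.7 CPM in WT and 29.3 CPM in GKO Sst-led barcodes, and at 17.9 and 18.2 CPM in quiescent stellate-like barcodes.

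The rest of the CRF family was nearly silent. Crh and Ucn, the genes of CRF and urocortin 1, had 0 UMIs in both libraries, and Ucn2 had 4 and 5. In insulin-led barcodes a count of 0 allows up to 0.0337 CPM in WT and 0.0914 CPM in GKO (3 UMIs). Crhr1, the other CRF receptor, was found almost entirely in insulin-led barcodes. Among barcodes that passed the filter, these held 60 of 60 UMIs in WT and 42 of 43 in GKO. Sst-led barcodes of either library held 0 Crhr1 UMIs. In insulin-led barcodes Crhr1 was at 0.674 CPM (0.514 to 0.867) in WT and 1.28 CPM (0.923 to 1.73) in GKO, a log2 ratio of 0.93 (0.32 to 1.52). It was the 1 of the 2 family members with enough UMIs for that class that lay past 1.5-fold, and 2.60% of all genes did so toward GKO. Crhbp, which encodes the protein that binds CRF and urocortin 1, had 80 UMIs in WT and 9 in GKO insulin-led barcodes, or 0.898 CPM (0.712 to 1.12) and 0.274 CPM (0.125 to 0.521).

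Of somatostatin and its receptors, the next steps of the loop, Sstr3 and Sstr1 differed little between genotypes in Sst-led barcodes. Sst itself reached 185265 and 185496 CPM, a log2 ratio of 0.00, but the class was chosen by its Sst share. The Sst level within the class therefore cannot show whether Sst differs between genotypes. Sstr3 was 67.3 and 66.2 CPM, and Sstr1 was 7.78 (6.50 to 9.24) and 8.74 (7.08 to 10.7) CPM. Of the 6 genes of the list, 3 had at least 100 UMIs, Sst among them, and 0 passed 1.5-fold. In insulin-led barcodes Sstr3 was 46.2 CPM (44.8 to 47.6) in WT and 40.0 CPM (37.8 to 42.2) in GKO, a log2 ratio of -0.21 (-0.30 to -0.12). In Gcg-led barcodes Sstr2, the receptor through which somatostatin acts on α cells, was 12.5 CPM (10.7 to 14.4) in WT and 16.4 CPM (14.6 to 18.3) in GKO, a log2 ratio of 0.39 (0.12 to 0.67). Sstr2 did not pass 1.5-fold there, as 3.39% of genes in that class did.

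Of 10 receptors listed for δ cells, 5 had enough UMIs in Sst-led barcodes, Crhr2 among them. Ghsr, the ghrelin receptor, was 25.5 CPM (23.2 to 28.1) in WT and 31.4 CPM (28.2 to 34.9) in GKO, a log2 ratio of 0.30 (0.09 to 0.51). Ffar4, a long-chain fatty acid receptor, was 61.9 (58.1 to 65.8) and 73.4 CPM (68.4 to 78.6), a log2 ratio of 0.25 (0.11 to 0.38). Gipr was 23.3 and 26.1 CPM, a log2 ratio of 0.17 (-0.06 to 0.39), and Adra2a 12.9 and 15.4 CPM, a log2 ratio of 0.26 (-0.04 to 0.56). Both were higher in insulin-led barcodes of WT, at 34.7 and 28.6 CPM. All 5 ratios were above 0, with a median of 0.25 against 0.03 over all genes of the class, and 0 of the 5 passed 1.5-fold. A ratio above 0 was common there, since 43.0% of genes lay below the 0.00 of Sst. The intervals of Crhr2, Gipr and Adra2a held 0. With TMM factors Crhr2, the smallest of the 5, was still above 0, at 0.03. Sst-led barcodes with a Crhr2 UMI had a Ghsr UMI in 29.7% (21.0 to 39.6) of cases in WT and 27.1% (17.2 to 39.1) in GKO. Those without Crhr2 had one in 23.2% (20.9 to 25.5) and 27.1% (24.3 to 30.1), and the intervals overlapped.

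CRHR2 signals through Gs and cAMP, and 14 of 16 genes listed for that branch had enough UMIs in Sst-led barcodes. Of these, 1 passed 1.5-fold toward GKO and 0 toward WT, where 1.44% and 1.69% of all genes did. It was Adcy3, an adenylyl cyclase, at 3.23 CPM (2.43 to 4.22) in WT and 5.46 CPM (4.17 to 7.03) in GKO, a log2 ratio of 0.76 (0.20 to 1.32). Pde10a, a phosphodiesterase that breaks down cyclic nucleotides, was 130 CPM (125 to 136) and 182 CPM (174 to 190), a log2 ratio of 0.48 (0.40 to 0.57). Its ratio was larger in insulin-led (0.89) and Gcg-led barcodes (0.61), both past 1.5-fold, and was 0.23 in Ppy-led barcodes. Gnas, which encodes the Gs α-subunit, was 3139 and 3418 CPM, a log2 ratio of 0.12. In insulin-led, Gcg-led and Ppy-led barcodes Gnas had larger ratios of 0.34, 0.28 and 0.24. Prkacb, a catalytic subunit of protein kinase A, was 372 CPM in WT and lower, 333 CPM, in GKO, a log2 ratio of -0.16 (-0.22 to -0.10). The median of the branch was 0.07 against 0.03 over all genes.

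**Figure D4:**
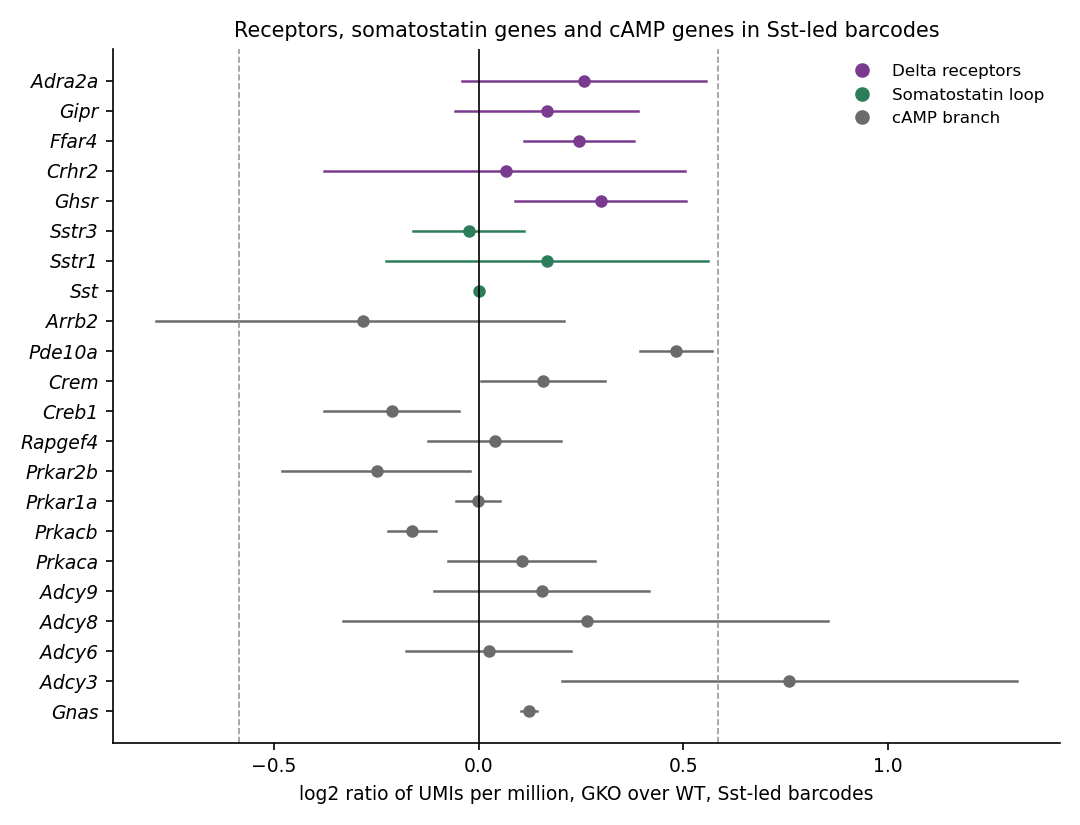
Log2 ratios of GKO to WT in Sst-led barcodes with 95% intervals for counting error, for receptors listed for δ cells (purple), somatostatin genes (green) and genes of the cAMP branch (gray) with at least 100 UMIs in both libraries together; dashed lines mark 1.5-fold. Crhr2 lies at 0.07 with an interval from -0.38 to 0.50, and Adcy3 at 0.76 is the 1 gene past 1.5-fold.

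Genes of β-cell maturity were looked at beside Ucn3 in insulin-led barcodes of both genotypes. Of 20 listed genes, 19 had enough UMIs, and 1 passed 1.5-fold toward GKO and 0 toward WT, where 2.60% and 2.04% of all genes did. It was Mafa, a transcription factor of mature β cells, at 2.21 CPM (1.91 to 2.54) in WT and 4.24 CPM (3.56 to 5.00) in GKO. G6pc2 was at 514 CPM in WT barcodes and 366 CPM in GKO barcodes, a log2 ratio of -0.49 (-0.52 to -0.46), while Slc2a2, the GLUT2 transporter, was 265 and 268 CPM. Pdx1 was 53.0 and 77.2 CPM, a log2 ratio of 0.54. Of 17 genes listed for immature or dedifferentiated β cells, 13 had enough UMIs, and 4 passed 1.5-fold toward GKO. They were Aldh1a3, Dlk1, Gast and Neurog3, all below 4 CPM. Neurog3 and Dlk1 were far higher in Sst-led barcodes, at 45.4 CPM in WT and 57.5 CPM in GKO for Neurog3 and at 28.1 and 61.5 CPM for Dlk1. The Dlk1 log2 ratio was 1.13 (0.96 to 1.30) there and 1.88 (1.09 to 2.76), from 16 and 76 UMIs, in Gcg-led barcodes. Aldh1a3 went the other way in Sst-led barcodes, at 5.62 CPM in WT and 3.28 CPM in GKO, a log2 ratio of -0.78 (-1.38 to -0.21). Gast differed little in Sst-led barcodes, at 4.31 and 4.01 CPM, a log2 ratio of -0.10 (-0.68 to 0.46). Of the receptors compared in Sst-led barcodes, only Ghsr and Crhr2 had counting intervals above 0 in insulin-led barcodes. Both rest on few UMIs, 67 in WT and 46 in GKO for Ghsr and 24 and 18 for Crhr2. Ghsr had 0.752 CPM in WT against 1.40 CPM in GKO, a log2 ratio of 0.90 (0.32 to 1.46), and Crhr2, with too few UMIs to be compared, had 1.03 (0.06 to 1.97). Ffar4, Gipr and Adra2a had log2 ratios of 0.07, 0.02 and 0.01, below the median of 0.09 over all genes of the class. Somatostatin made up 0.580% of UMIs of insulin-led barcodes in WT and 0.646% in GKO. Its part in these ratios was not tested. Mixed barcodes made up a similar share of the class in both, 18.7% in WT and 19.2% in GKO with a second hormone above 2%.

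A contrast within each library then asked which genes go with Ucn3 among insulin-led barcodes. The UMIs of each barcode with at least 5000 UMIs outside hormone genes were split at random into a choosing set and a measuring set. Barcodes were ranked by Ucn3 per UMI outside hormone genes in the choosing set. This total is smaller where insulin takes more of the UMIs, which by itself favors a high insulin share in the upper arm. The upper and the lower 25% of barcodes were compared in the measuring set, 558 against 558 in WT and 215 against 215 in GKO. Ucn3 in the measuring set was 756 non-hormone CPM in Ucn3-high and 147 in Ucn3-low barcodes of WT, and 770 and 127 in GKO. This shows that the choice carried over to other UMIs of the same barcodes. Counts of barcodes that held a gene, and shares held by a single barcode, are over the UMIs of both sets together. The arms also differed in make-up. Insulin was a median of 65.8% of UMIs in Ucn3-high and 50.2% in Ucn3-low barcodes of WT, and 64.8% and 45.3% in GKO. A second hormone above 2% was present in 4.66% and 30.6% of barcodes in WT, and in 3.26% and 31.6% in GKO. The contrast was therefore repeated with barcodes whose second hormone was at most 2%, and both values are given. Ratios are on the non-hormone scale, on which the median gene had log2 ratios of -0.02 and -0.04, with 197 genes past 1.5-fold higher and 359 lower in both libraries. Scaled by all UMIs, insulin included, the median gene was at -0.53 and -0.62, and the split was 51 higher and 2319 lower.

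Several genes of β-cell maturity were higher with Ucn3 in both libraries. Of 16 maturity genes tested, 7 were past 1.5-fold higher and 2 lower, where 2.88% and 5.25% of 6843 genes were. Without mixed barcodes 5 were higher and 1 lower, where 1.48% and 2.78% of 5761 genes were. Scaled by all UMIs, 5 were higher and 3 lower, where 51 and 2319 of 6843 genes were. After thinning to 5000 UMIs outside hormone genes, 4 were higher and 0 lower, where 45 and 67 of 3447 genes were. Trpm5 was 307 non-hormone CPM in Ucn3-high and 90.4 in Ucn3-low barcodes of WT, and 252 and 68.5 in GKO. Its log2 ratios were 1.76 (WT) and 1.88 (GKO), and 1.23 and 1.3 without mixed barcodes. Sytl4, a granule-docking protein, had 1.35 and 1.65, then 0.88 and 1.23. Slc2a2 had 1.16 and 1.37, then 0.81 and 0.74, and G6pc2 had 1.26 and 1.52, then 0.74 and 0.79. Ero1b, an oxidase that supports disulfide formation in proinsulin and is listed as Ero1lb in the files, had 1.26 and 1.52, then 0.71 and 0.82. Pcsk1, a proinsulin convertase, and Slc30a8, the granule zinc transporter, were past 1.5-fold only with mixed barcodes included.

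Other genes of the maturity list were not past 1.5-fold higher with Ucn3. Neurod1, a transcription factor of endocrine cells, had log2 ratios of 0.14 and 0.18. Nkx6-1 had 0.55 and 0.42, then 0.24 and 0.08 without mixed barcodes. Pdx1 had 0.36 and 0.28, then 0.26 and 0.19. With mixed barcodes included, the counting intervals of Nkx6-1 and Pdx1 lay above 0 in both libraries. Mlxipl, the carbohydrate-response factor ChREBP, was lower in Ucn3-high barcodes, with -0.77 and -0.66, then -0.80 and -0.75. Chgb, chromogranin B, had -0.59 and -0.66, then -0.57 and -0.50, both short of 1.5-fold. Mafa had too few UMIs to be tested, with 24 against 12 in WT and 27 against 5 in GKO. The median of the tested maturity genes was 0.45 in WT and 0.35 in GKO, then 0.25 and 0.14, against -0.02 and -0.04, then 0.00 and 0.00, over all genes. The 5 genes higher in both versions were lower in the other hormone-led classes than in insulin-led barcodes. In WT, Trpm5 was 69.8 CPM in insulin-led and 0.690 in Gcg-led barcodes, and Ero1b 546 and 62.1. Of genes not past 1.5-fold with Ucn3, Neurod1 was higher in Gcg-led barcodes of WT (139 against 86.5 CPM) and Nkx6-1 lower (13.8 against 107). The part of RNA from other cells in these ratios was not tested.

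Of the 17 immaturity genes only 5 had enough UMIs, and 4 of them were lower in Ucn3-high barcodes in both versions. Cd81, a tetraspanin surface marker, had log2 ratios of -1.84 and -2.15, then -1.73 and -1.96. Rbp4, retinol-binding protein, had -2.64 and -3.70, then -2.07 and -3.04. Pyy had -2.50 and -3.21, then -1.77 and -2.21. Both Rbp4 and Pyy are also made by other islet endocrine cells, whose RNA in the Ucn3-low arm was not removed by the 2% limit in full. Cd81 too was higher in other classes of WT than in insulin-led barcodes, where it was 105 CPM. It was 277 CPM in Gcg-led, 340 in Sst-led and 1274 in activated stellate-like barcodes. In the Ucn3-low arm without mixed barcodes, Ppy was still 0.154% of UMIs in WT and 0.103% in GKO, against 0.0702% and 0.0659% in the Ucn3-high arm. Sst was 0.0777% and 0.0542%, against 0.0436% and 0.0171%. Gcg differed less, at 0.0458% and 0.0492%, against 0.0359% and 0.0446%. These are shares of all UMIs, of which insulin takes more in the Ucn3-high arm. On the non-hormone scale, the log2 ratios of Ucn3-high to Ucn3-low were -0.80 (WT) and -0.28 (GKO) for Ppy. They were -0.48 and -1.26 for Sst. Gcg had 0.00 and 0.23 (0.12 to 0.34), so on that scale it was not lower in the Ucn3-high arm. The part of such RNA in the result was not tested.

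Npy was the 1 gene of the immaturity list that was higher with Ucn3, and it came from few barcodes. Its log2 ratios were 4.05 and 3.28, then 1.27 and 0.84. In WT 39 of 558 Ucn3-high and 8 of 558 Ucn3-low barcodes held an Npy UMI, and in GKO 16 and 5 of 215. A single barcode held 53.2% of the Npy UMIs in the WT Ucn3-low arm and 37.3% of those in the GKO Ucn3-high arm.

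**Figure D5:**
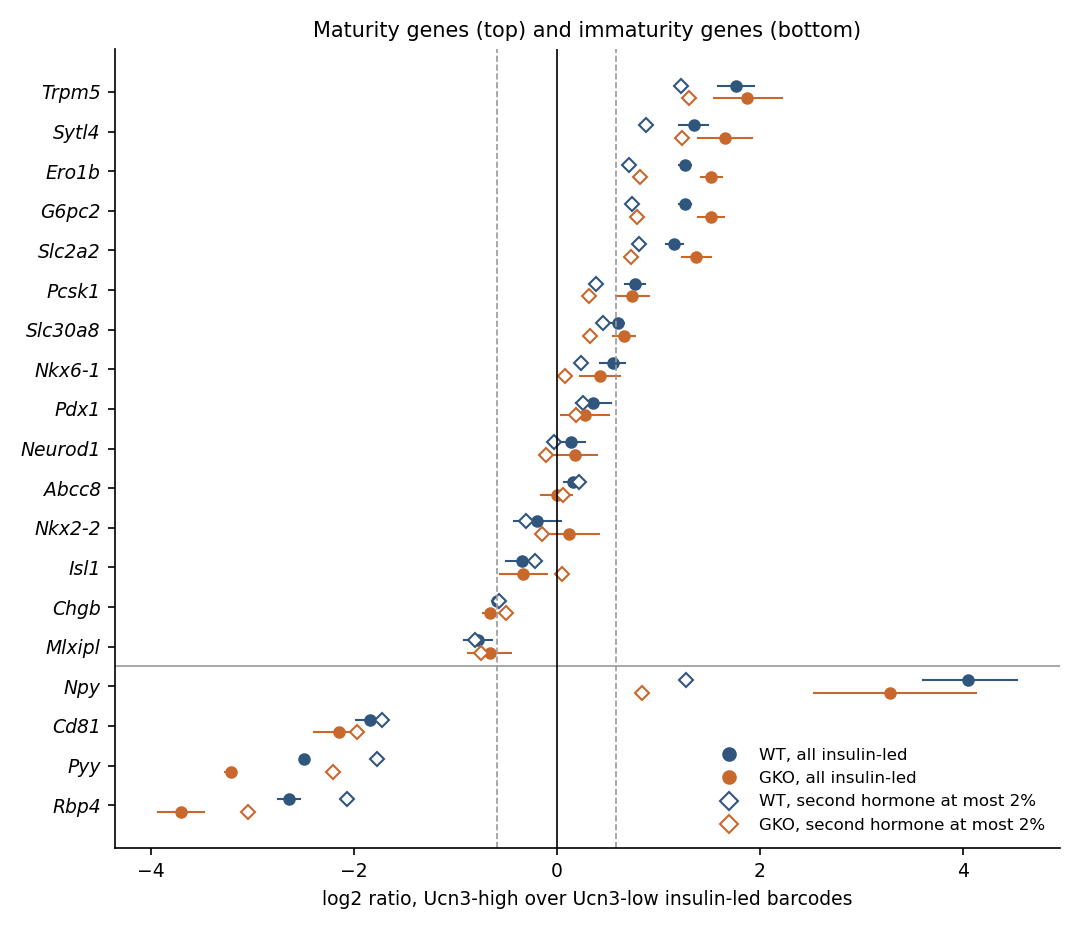
Log2 ratios of Ucn3-high to Ucn3-low insulin-led barcodes for tested genes of the maturity list (top, not all shown) and the immaturity list (bottom, not all shown), in WT (blue) and GKO (orange). Filled circles with 95% counting intervals are all insulin-led barcodes, open diamonds are those with a second hormone of at most 2%, and dashed lines mark 1.5-fold. Trpm5, Sytl4, Ero1b, G6pc2 and Slc2a2 lie above 1.5-fold, and Cd81, Pyy and Rbp4 below, in both libraries and both versions.

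Outside the lists, the genes most strongly higher with Ucn3 were Adam32, Cox6a2, 2210019I11Rik, Cbs and Gad1. Cox6a2 was 478 non-hormone CPM in Ucn3-high and 101 in Ucn3-low barcodes of WT, and 500 and 81.5 in GKO. It was found in 481 of 558 Ucn3-high and 160 of 558 Ucn3-low barcodes of WT. Gad1, which makes the transmitter GABA, had log2 ratios of 1.72 and 2.62, then 1.21 and 1.94. Adam32, Cox6a2, 2210019I11Rik and Gad1 were also among the 5 highest without mixed barcodes. The genes most strongly lower were Nrp1, Cxcl13, Cxcl2, Bgn and Prss23, and without mixed barcodes Cxcl13, Dcn, Bgn, Col1a2 and Col3a1. Bgn, Dcn, Col1a2 and Col3a1 are matrix genes of stromal cells and lay in few barcodes. Dcn was found in 24 of 453 Ucn3-low barcodes of WT and 14 of 174 of GKO. Of the 1578 Cxcl13 UMIs in the GKO Ucn3-low arm, counted over both sets, 94.0% were in 1 barcode. Markers of activated stellate cells summed to 179 and 490 non-hormone CPM in the Ucn3-low arm and 57.9 and 32.3 in the Ucn3-high arm of WT and GKO. Acinar markers summed to 3066 and 247, against 419 and 177. Not every class went this way. Macrophage markers were lower in the Ucn3-low arm of WT, at 182 against 262, and higher in that of GKO, at 564 against 280. Quiescent stellate markers differed little in WT, at 37.8 against 31.5, and more in GKO, at 141 against 11.3. How much of the contrast comes with such RNA was not tested.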

How the data were processed

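The data are 10x Genomics 3′ single-cell RNA-Seq libraries of islet cells, 1 of WT and 1 of GKO mice, each from 4 pooled mice. The authors made the count matrices with Cell Ranger (5.0.1 in the file headers; mm10 in the submitters' processing notes), and the deposited values are raw UMI counts per gene and barcode, before the study's removal of ambient RNA and doublets. The annotation version is not given in the sources used here.

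Following the study, barcodes under 500 genes or over 10% mitochondrial UMIs were left out. Hormone-led classes needed 10% of UMIs, and other classes needed 3 detected markers. No doublet caller was run; barcodes with a second hormone above 2% were left out as an alternative. UMIs were summed per class and library and scaled to CPM. Genes were compared with at least 100 UMIs (genotype) or 200 UMIs (Ucn3-high against Ucn3-low). Intervals are exact Poisson or Clopper-Pearson at 95%; a count of 0 is given a limit of 3 counts. No test was possible with 1 library per genotype. Library totals were 158067110 (WT) and 103511757 (GKO) UMIs.

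The members and gene lists were chosen with earlier results of these data known. Genes named are the members, every list gene past the fold limit with examples of the others, the 5 genes most like each member, and the 5 highest and 5 lowest in the Ucn3 contrast with at least 50 non-hormone CPM. Some genes that this rule would name are not reported here. Ero1b was matched by a synonym. Calculations were made in Python 3.11.15 (pandas 2.3.3, scipy 1.17.1, matplotlib 3.10.9, numpy 2.4.6), took TMM factors from edgeR 4.0.16 in R 4.3.3, and were tested on simulated data. Alternatives changed the barcode filter, the hormone limits, the total for scaling, the weight of barcodes, the depth (thinning) and the split; leaving out the 18 barcode sequences found in both libraries was added after the data were seen.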

Additional observations from a re-analysis of the deposited data

How the results depend on the processing

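No paired analysis was possible because each genotype has 1 library, and no replicate could be left out. Log2 ratios follow. Ucn3 in insulin-led barcodes, GKO against WT, was 0.05 and changed sign with hormone genes left out of the total (-0.0284), with TMM scaling (-0.0444) and after thinning to 5000 UMIs (-0.10); under the other 5 settings it was 0.04 to 0.07. The ratio of Ucn3 in Gcg-led barcodes (-0.49 to 0.07 over 8 settings) and of Crhr2 in Sst-led barcodes (-0.22 to 0.16 over 8) stayed within their counting intervals. The step of Ucn3 from Gcg-led to insulin-led barcodes was 6.12 in WT and 6.37 in GKO, and 7.14 and 7.31 without hormone genes in the total. The step of Crhr2 from insulin-led to Sst-led barcodes was 4.60 in WT and 3.64 in GKO. It was 6.35 and 5.25 with a second hormone of at most 2%, and 3.58 and 2.69 without hormone genes in the total. In WT it was 5.33 with a leading hormone of at least 25% and 3.69 after thinning. Genes past 1.5-fold between Ucn3-high and Ucn3-low barcodes numbered 556, and 245 with a second hormone of at most 2%, 2370 with CPM over all UMIs, 112 after thinning and 142 with at least 1000 UMIs per gene; under the other 3 settings there were 408 to 504. Thinning and the higher minimum leave fewer genes tested (3447 and 1805 of 6843). Of the 197 genes higher with Ucn3, 78 were also among the 85 found without mixed barcodes, and of the 359 lower, 131 were among the 160. Crhr2 rests on 109 and 75 UMIs in Sst-led barcodes, which sets the width of its interval.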

Other observations

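A barcode with more Ucn3 than any insulin-led barcode was found outside the hormone-led classes. In GKO, 1 barcode with 14210 UMIs and 4395 genes held 52 Ucn3 UMIs, 4092 non-hormone CPM, while the highest insulin-led barcode of that library reached 2225. Insulin made up 3.61% of its UMIs, and it also held 967 Iapp UMIs (islet amyloid polypeptide, a β-cell and δ-cell hormone), 15 G6pc2 UMIs and 23 Zdhhc2 UMIs, but 0 UMIs of Cox6a2, the gene whose pattern over classes was most like that of Ucn3. It carried 52 of the 64 Ucn3 UMIs of the 239 GKO barcodes without a class. In WT, the barcode with most Ucn3 among the 179 without a class held 7 Ucn3 UMIs of 10046, with insulin at 0.956% of UMIs. It also held 371 Iapp UMIs, 17 Cox6a2 UMIs, and 48 UMIs of Nupr1, 15 of Ddit3 and 8 of Atf5, which are genes of the cell stress response. The GKO barcode held 11 Nupr1, 2 Ddit3 and 8 Atf5 UMIs, and insulin-led barcodes were not compared for these genes. Both barcodes were chosen after their values were seen, and whether they are cells with little insulin RNA was not tested.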
